A study of Homo sapiens with 16 samples.

Results

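The ID genes and 5 genes of the bone morphogenetic protein (BMP) pathway were followed across 4 groups of LNCaP cells. The 9 genes, of 60676 gene IDs counted, were the 4 ID genes (ID1, ID2, ID3 and ID4), the inhibitory SMAD genes SMAD6 and SMAD7, the ligand gene BMP7 and the receptor genes BMPR1A and BMPR2. They were chosen by name, because ID1 and ID3 were higher with drug in both genotypes in these same libraries, so every difference between drug and solvent is given here for these genes as a description, with no test. LNCaP is a prostate cancer line, derived from a lymph node metastasis, that responds to androgens. DKO cells, in which RB and p53 were knocked out together by CRISPR-Cas9, and parental WT cells were each kept in serum-containing medium. For 6 days they received DMSO, the solvent, or 50 µM enzalutamide (EZ), which blocks the androgen receptor. The groups were DKO EZ, DKO DMSO, WT EZ and WT DMSO, with 4 libraries of rRNA-depleted total RNA each. Whether the DKO line is a single clone or a pool is not given in the sources used here.

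BMP ligands bind a pair of type II and type I receptor kinases, which phosphorylate SMAD1, SMAD5 and SMAD9, and these enter the nucleus with SMAD4. The ID genes are classic direct targets of that complex, and their products are helix-loop-helix proteins without a DNA-binding region that hold E proteins and tissue-specific bHLH factors away from DNA. SMAD6 and SMAD7 are also induced by the pathway and feed back on its receptors. In the prostate, BMP signalling is known for roles in branching of the gland and in bone metastasis, and ID1 is known as a gene of proliferating and poorly differentiated epithelium.

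Libraries held 11823438 to 47678648 counts, and the loss of RB1 was visible in them. RB1 averaged 11.7 and 10.6 CPM (counts scaled to the library size after TMM normalization, which made them 0.888 to 1.2 times the values on plain library totals) in DKO EZ and DKO DMSO, against 112 and 115 CPM in WT EZ and WT DMSO. The luminal marker genes KLK3, KLK2, TMPRSS2 and FOLH1 were lower in DKO than in WT cells with both DMSO and EZ (edgeR, adjusted p below 0.05), whereas KRT8, HOXB13, KRT18 and ACP3 did not pass the test. Summed CPM of 5 leukocyte markers lay between 0.0462 and 0.682 in all 16 libraries, and CD3E had no count. The summed fibroblast markers were 38.1 to 52.1 CPM in DKO EZ and 27.1 to 46.8 CPM in DKO DMSO, against 15.3 to 21.4 CPM in WT EZ and 16.8 to 22.3 CPM in WT DMSO, mostly from COL1A1, while DCN had no count in WT cells. The summed endothelial markers, mostly from VWF, were 3.89 to 5.6 CPM in DKO EZ and 7.3 to 12.4 CPM in DKO DMSO. In WT cells they were 3.93 to 8.31 CPM with EZ and 7.31 to 18.9 CPM with DMSO. The part of these markers in the drug differences was not tested. Replicate 1 of both EZ groups stood apart, with the lowest summed mitosis genes of its group, 387 CPM in DKO EZ and 216 CPM in WT EZ. Some results, among them the drug responses of ID1, ID2 and ID3, are therefore given with and without these libraries. In 6 libraries the structural RNA RN7SL1 took 0.2201% to 0.6207% of counts, against 0.04811% to 0.1166% in the other 10.

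To show what lies before the starts of a pair of genes that were higher with drug in both genotypes, the 250 bases upstream of the RefSeq start (GRCh38.p14) are given for ID1 at chr20:31605039-31605288 (plus strand) and for SMAD6 at chr15:66701986-66702235 (plus strand). Capitals mark matches, on either strand, to 1 of 4 motifs searched, which were GGCGCC (a GC-rich SMAD1/5 motif), GTCTAGAC (the palindromic SMAD box), TGACGTCA (the cAMP response element) and TATAAA (the TATA box).
ID1: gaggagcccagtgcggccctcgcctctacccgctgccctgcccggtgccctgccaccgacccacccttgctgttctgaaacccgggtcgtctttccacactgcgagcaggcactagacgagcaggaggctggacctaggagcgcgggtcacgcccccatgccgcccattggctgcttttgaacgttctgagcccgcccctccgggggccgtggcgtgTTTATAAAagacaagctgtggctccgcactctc
SMAD6: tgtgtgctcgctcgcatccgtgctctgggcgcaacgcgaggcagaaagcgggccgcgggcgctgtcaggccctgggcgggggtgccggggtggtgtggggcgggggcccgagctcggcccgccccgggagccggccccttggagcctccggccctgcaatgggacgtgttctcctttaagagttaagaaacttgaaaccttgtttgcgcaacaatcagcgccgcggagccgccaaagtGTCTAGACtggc
ID1 holds a TATA box on each strand, overlapping each other, whose first bases lie 33 and 31 bases before the start, and 10.7% of 35116 promoter windows of this length hold that motif. SMAD6 holds a full SMAD box that begins 12 bases before the start, and 64 of the 35116 windows (0.182%) do so. Neither window holds GGCGCC, which occurs in 16.4% of all windows, or TGACGTCA, which occurs in 1.65%. Of the 9 genes 8 matched an entry of the promoter table, all but BMP7. The windows of ID2 and ID3 lie mostly inside exons of longer GENCODE v29 transcripts and are not shown, and neither holds any of the 4 motifs. The absence of a motif says only that its letters are not in this window, and the BMP-responsive element described for the mouse Id1 gene lies farther upstream than these bases.

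ID1 (chromosome 20, 31605283 to 31606515, plus strand, GRCh38) was low in DMSO and far higher with EZ in both genotypes. It had 93.7, 41.6, 35.6 and 17.3 CPM in replicates 1 to 4 of DKO EZ, against 5.38, 3.99, 2.71 and 2.87 CPM in DKO DMSO. In WT cells it had 65.1, 20.3, 28.0 and 8.01 CPM with EZ, against 7.68, 1.83, 1.97 and 1.62 CPM with DMSO. All EZ libraries lay above all DMSO libraries of their genotype, although the margin in WT was narrow, since WT EZ replicate 4 was close to WT DMSO replicate 1. On plain library totals these libraries had 7.09 and 7.14, so the WT groups then overlapped. The log2 fold change with drug was 3.66 ± 0.72 (SE, from the model without pairing of replicates) in DKO cells and 3.24 ± 0.71 in WT cells. Without EZ replicate 1 of the same genotype it was 3.08 in DKO cells and 2.54 in WT cells, and without WT DMSO replicate 1 it was 4.09 in WT cells.

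ID3 (chromosome 1, 23557918 to 23559794, minus strand) followed the same order as ID1. It had 94.1, 26.8, 31.5 and 27.4 CPM in DKO EZ, against 5.28, 3.31, 3.32 and 5.37 CPM in DKO DMSO. It had 79.9, 24.6, 28.8 and 15.4 CPM in WT EZ, against 3.87, 2.12, 2.61 and 4.19 CPM in WT DMSO. The groups were well separated, and the lowest EZ library of either genotype was still above every DMSO library of both. The log2 fold change with drug was 3.37 ± 0.55 in DKO cells and 3.55 ± 0.56 in WT cells, and 2.71 and 2.85 without EZ replicate 1.

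ID2 (chromosome 2, 8678845 to 8684453, plus strand) was higher with drug and also higher in the DKO line. It had 110, 44.8, 50.0 and 53.6 CPM in DKO EZ, against 14.3, 13.3, 13.5 and 22.7 CPM in DKO DMSO. It had 39.1, 14.1, 17.8 and 10.9 CPM in WT EZ, against 7.57, 4.71, 7.20 and 9.88 CPM in WT DMSO. The log2 fold change with drug was 2.01 ± 0.39 in DKO cells and 1.48 ± 0.39 in WT cells, and 1.63 and 0.97 without EZ replicate 1. Every DKO EZ library exceeded every WT EZ library, and every DKO DMSO library every WT DMSO library. With EZ, ID2 rose in DKO relative to WT cells, with a log2 fold change of 1.66 ± 0.39 (edgeR, adjusted p = 0.0062). With DMSO the difference was 1.13 ± 0.39 and missed the threshold (edgeR, adjusted p = 0.0576), but passed in 9 of 26 alternative fits, where the adjusted p ran from 0.00154 to 0.149. The antisense gene ID2-AS1 overlaps ID2 over 3019 bases and averaged 15, 6.46, 9.53 and 5.35 CPM in DKO EZ, DKO DMSO, WT EZ and WT DMSO. The strand setting of the counting is not given in the sources used here, and without it a read in the overlap could belong to either gene.

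ID4 (chromosome 6, 19837386 to 19840684, plus strand) was the scarcest of the family, with only 3 to 149 reads per library. It had 8.92, 1.66, 1.68 and 1.45 CPM in DKO EZ, against 0.593, 0.382, 0.108 and 0.455 CPM in DKO DMSO. It had 1.27, 0.786, 0.695 and 0.122 CPM in WT EZ, against 0.261, 0.189, 0.29 and 0.125 CPM in WT DMSO. EZ and DMSO libraries overlapped in WT but not in DKO cells, and DKO EZ lay above WT EZ in every library. With drug the log2 fold change was 3.14 ± 0.70 in DKO cells (2.04 without DKO EZ replicate 1) and 1.71 ± 0.77 in WT cells. ID4 rose in DKO EZ relative to WT EZ cells, with a log2 fold change of 2.27 ± 0.67 (edgeR, adjusted p = 0.0212). That call was lost without DKO EZ replicate 1 (1.21, adjusted p = 0.148) or without WT EZ replicate 4 (1.92, adjusted p = 0.0542). The antisense gene LNC-LBCS overlaps ID4 over 1695 bases and averaged 1.53, 0.418, 1.36 and 0.404 CPM in DKO EZ, DKO DMSO, WT EZ and WT DMSO, so the same limit on strand applies.

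**Figure D1:**
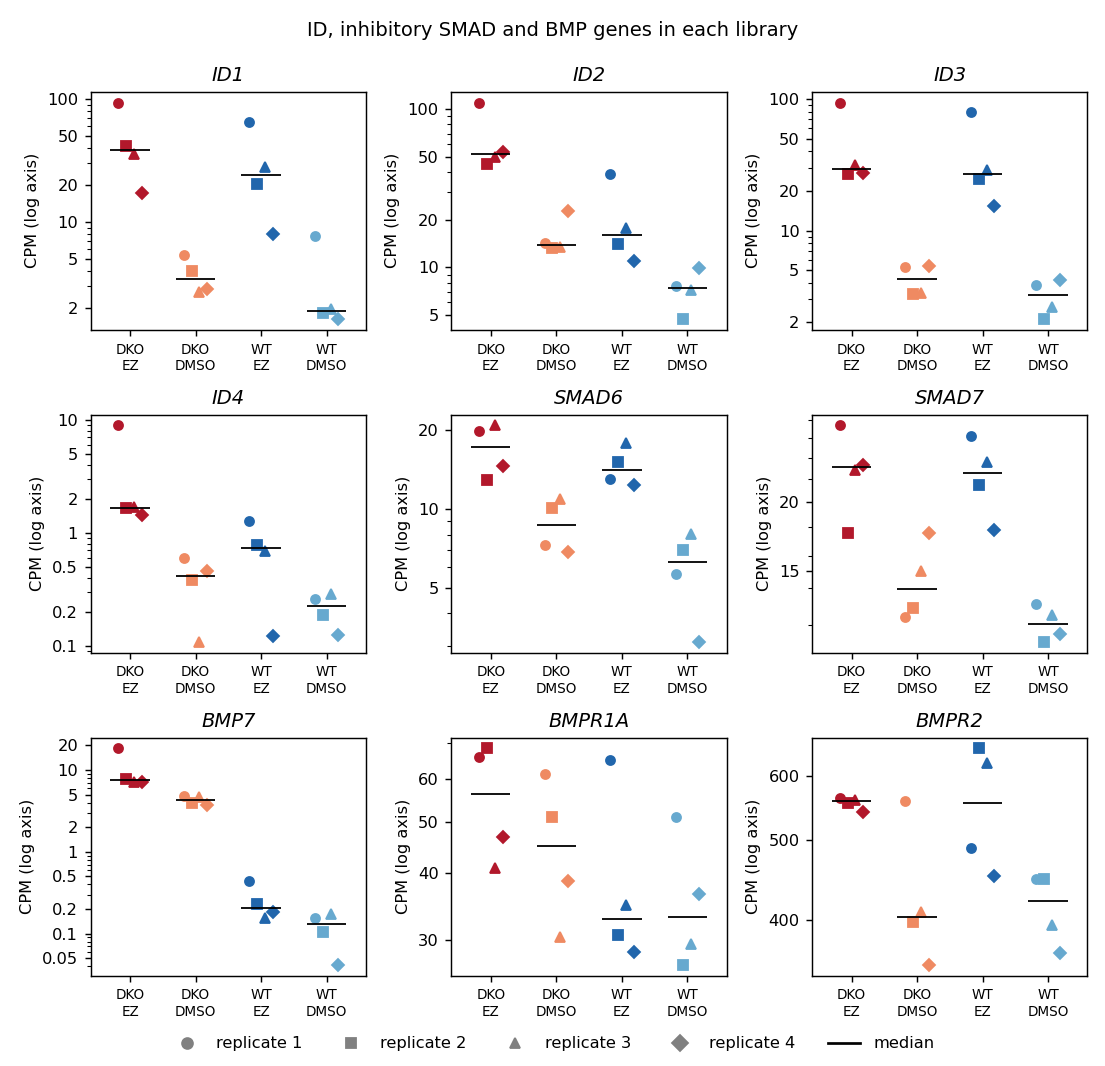
CPM of the 9 genes in each of the 16 libraries, 1 panel per gene with its own log axis. Points are libraries, symbols give the replicate number and bars are medians of 4 libraries. ID1, ID2 and ID3 sit higher in both EZ groups, while BMP7 separates DKO from WT cells, between 3.73 and 18.4 CPM against 0.0415 to 0.443 CPM.

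The make-up of the ID family also differed between groups. In CPM per kb of exon, the 4 ID genes summed to 54.2 to 182 in DKO EZ and 10.2 to 15.8 in DKO DMSO, and to 20.1 to 116 in WT EZ and 4.88 to 11.9 in WT DMSO. ID2 made up 27.3% to 44.8% of that sum in DKO EZ and 46.1% to 65.1% in DKO DMSO, so its share was lower in every EZ library than in every DMSO library. In WT cells the share of ID2 was 15.3% to 24.6% with EZ and 28.8% to 54.8% with DMSO. ID3 accounted for 21.4% to 28.8% in DKO EZ and 34.0% to 42.7% in WT EZ, and ID4 stayed at or below 2.09% in all 16 libraries. These are shares of transcripts in whole cultures, where fewer cells of a type and less RNA per cell cannot be told apart.

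SMAD6, which blocks type I receptors of the BMP branch, was higher with drug in both genotypes, by less than the ID genes. It had 19.9, 12.9, 20.9 and 14.6 CPM in DKO EZ, against 7.31, 10.1, 10.9 and 6.85 CPM in DKO DMSO. It had 13.1, 15.2, 17.9 and 12.4 CPM in WT EZ, against 5.64, 6.98, 8.07 and 3.11 CPM in WT DMSO. The groups did not overlap within either genotype, and the log2 fold change with drug was 0.96 ± 0.25 in DKO cells and 1.30 ± 0.25 in WT cells. Between genotypes SMAD6 did not pass, with 0.22 ± 0.25 in EZ and 0.56 ± 0.25 in DMSO (edgeR, adjusted p = 0.6 and 0.142).

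SMAD7, which acts on both the BMP and the TGF-beta branch, showed smaller differences. It had 27.4, 17.6, 22.8 and 23.3 CPM in DKO EZ, against 12.4, 12.9, 15 and 17.6 CPM in DKO DMSO. It had 26.2, 21.4, 23.6 and 17.8 CPM in WT EZ, against 13.1, 11.2, 12.5 and 11.6 CPM in WT DMSO. The groups were apart in WT cells, whereas in DKO cells DMSO replicate 4 reached the level of EZ replicate 2. The log2 fold change with drug was 0.65 ± 0.16 in DKO and 0.88 ± 0.16 in WT cells, and the genotypes did not pass the test in EZ or DMSO (edgeR, adjusted p = 0.908 and 0.275).

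BMP7, a secreted ligand of this family, set the genotypes apart. It had 18.4, 7.73, 7.11 and 7.17 CPM in DKO EZ, against 0.443, 0.231, 0.155 and 0.183 CPM in WT EZ. With DMSO it had 4.84, 3.95, 4.69 and 3.73 CPM in DKO cells, against 0.157, 0.105, 0.174 and 0.0415 CPM in WT cells, where no library held more than 5 reads of it. BMP7 rose in DKO relative to WT cells by a log2 fold change of 5.36 ± 0.42 in EZ and 5.19 ± 0.45 in DMSO (edgeR, adjusted p = 9.43e-08 and 3.09e-07). These comparisons share no library, but they come from 1 model of the same lines. Same-numbered EZ and DMSO libraries also deviated together within each genotype, so the comparisons are not independent. WT libraries held 1 to 8 reads of BMP7, below the minimum count of 10, so this gene passed the low-count filter through its DKO libraries. The call held in all 26 alternative fits of each comparison, including the fit with no low-count filter. With drug, the DKO libraries were all higher, with a log2 fold change of 1.23 ± 0.32 that was 0.76 without DKO EZ replicate 1, while the WT libraries overlapped at 1.07 ± 0.55.

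The receptors differed least with drug. BMPR1A, a type I BMP receptor, had 65.9, 68.5, 41.0 and 46.8 CPM in DKO EZ, against 61.4, 51.1, 30.5 and 38.8 CPM in DKO DMSO. It had 65.1, 30.7, 35.0 and 28.6 CPM in WT EZ, against 50.9, 27.0, 29.6 and 36.7 CPM in WT DMSO. All 4 groups overlapped, replicate 1 was the highest library of 3 of them, and the genotype differences were 0.48 ± 0.29 in EZ and 0.34 ± 0.29 in DMSO on the log2 scale (edgeR, adjusted p = 0.274 and 0.473). Without WT EZ replicate 1 the EZ difference of BMPR1A was 0.83 (adjusted p = 0.039). With drug its log2 fold change was 0.29 ± 0.28 in DKO cells and 0.14 ± 0.29 in WT cells. In WT cells it was -0.19 without WT EZ replicate 1. BMPR2, the type II receptor, had 563, 556, 561 and 542 CPM in DKO EZ, against 558, 397, 409 and 352 CPM in DKO DMSO. It had 490, 648, 621 and 452 CPM in WT EZ, against 448, 449, 394 and 364 CPM in WT DMSO. EZ was above DMSO in all WT libraries but overlapped it in DKO cells through 1 DMSO library, and the log2 fold changes with drug were 0.37 ± 0.14 in DKO and 0.42 ± 0.14 in WT cells. The 95% interval of its genotype difference ran from -0.30 to 0.31 in EZ and from -0.25 to 0.36 in DMSO.

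**Figure D2:**
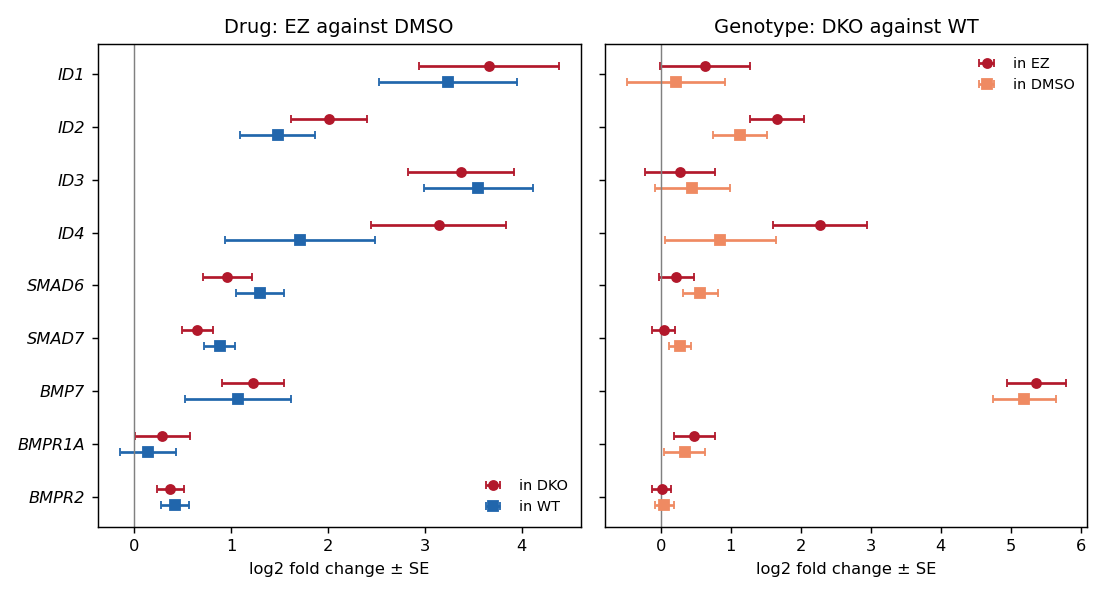
Log2 fold changes of the 9 genes from the edgeR model without pairing of replicates, with standard errors as bars. The left panel shows EZ against DMSO in DKO and in WT cells, and the right panel DKO against WT in EZ and in DMSO. ID1 and ID3 lie above 3 on the drug axis in both genotypes, and BMP7 lies above 5 on the genotype axis in both conditions.

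Across the 9 genes, EZ libraries all lay above DMSO libraries in 6 in DKO cells (ID1, ID2, ID3, ID4, SMAD6 and BMP7) and in 6 in WT cells (ID1, ID2, ID3, SMAD6, SMAD7 and BMPR2). Of all 21810 genes tested, 5.2% did so in DKO and 5.78% in WT cells. Both held for 4 of the 9 genes (ID1, ID2, ID3 and SMAD6), against 1.85% of all genes, and since the drug response chose the genes nothing is read from these counts. On plain library totals ID1 and BMPR2 overlapped in WT cells and SMAD7 no longer overlapped in DKO cells. The median log2 fold change with drug over the 9 genes was 1.23 in DKO and 1.30 in WT cells, beside 0.01 and -0.03 over all genes.

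The reason given for the choice was the drug response, but the genotype results were also known when the genes were chosen. In EZ, 3 of the 9 genes passed as higher in DKO (ID2, ID4 and BMP7), where 9.29% of all genes were called higher and 11.4% lower. In DMSO, 1 of 9 was higher (BMP7), where 8.91% were called higher and 9.7% lower, and BMP7 was the 1 member called higher in both conditions, as were 6.43% of all genes. Libraries of DKO lay all above those of WT for 3 of 9 genes in EZ (ID2, ID4 and BMP7) and 2 of 9 in DMSO (ID2 and BMP7), against 10.6% and 10.8% of all genes, and on plain library totals ID3 and SMAD7 did so in DMSO too. The median log2 fold change of the 9 genes was 0.48 in EZ and 0.45 in DMSO, beside -0.01 and -0.06 over all genes. ID1 and ID3 did not pass in either condition, and the 95% interval of DKO against WT in EZ ran from -0.73 to 2.00 for ID1 and from -0.79 to 1.34 for ID3, on the log2 scale.

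Whether the drug response differed between genotypes was tested by the interaction, in which the drug response of WT cells is subtracted from that of DKO cells. ID1 and ID3 were picked as higher with drug in both genotypes, and the interaction is built from those same values. Its results for the 9 genes are therefore not independent of that choice, and equal responses are not read from them. None of the 9 genes passed in edgeR, where 0.0% of all genes were called, and 0 of 9 had an unadjusted p below 0.05. DESeq2 and limma-voom called 0 of 9 as well. Over all 21810 genes edgeR called 0, with 648 at an unadjusted p below 0.05, DESeq2 called 4 and limma-voom 0. With replicates paired within genotype edgeR called 39 of all genes (0.179%) and 0 of the 9, none of which had an unadjusted p below 0.118. Without pairing, the interaction was 1.42 ± 1.03 for ID4, 0.53 ± 0.54 for ID2, 0.43 ± 0.95 for ID1 and -0.17 ± 0.73 for ID3. The 95% interval for ID1 was -1.60 to 2.45 and that for ID3 was -1.75 to 1.40. In the paired fit the interaction was 0.26 ± 0.39 for ID1, with an interval of -0.61 to 1.14, and -0.13 ± 0.61 for ID3, with an interval of -1.58 to 1.31. For ID2 it was 0.60 ± 0.55 (-0.70 to 1.90) and for ID4 1.14 ± 0.68 (-0.33 to 2.61).

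Around the 9 genes stand 88 other genes of 7 lists (ligands, receptors, SMADs and their regulators, extracellular antagonists, target genes, bHLH partners and the TGF-beta arm), of which 62 passed the filter on low counts. In the fit without pairing few of them passed with drug, and more did with replicates paired, as given further below. In DKO cells 2 rose and 1 fell, beside 1.03% and 0.445% of all genes, and in WT cells 1 rose and 2 fell, beside 2.25% and 1.07%. GATA2, a zinc-finger transcription factor listed as a BMP target, averaged 173 CPM in DKO EZ and 87.6 CPM in DKO DMSO, and 204 CPM in WT EZ and 110 CPM in WT DMSO. It rose by 0.98 ± 0.19 in DKO and 0.90 ± 0.19 in WT cells on the log2 scale (edgeR, adjusted p = 0.0139 and 0.0128), and was the 1 gene of the 62 whose EZ libraries all lay above DMSO in both genotypes. HES6, a bHLH factor that antagonizes HES1, fell by 1.45 on the log2 scale in DKO cells, to 12.8 CPM in EZ against 35.2 CPM in DMSO, and by 1.33 in WT cells, to 20.7 CPM against 52.2 CPM (edgeR, adjusted p = 0.00718 and 0.00539). TGFBR3, the co-receptor betaglycan, rose in DKO cells (0.81 ± 0.19, adjusted p = 0.0474), and RGMB, a BMP co-receptor, fell in WT cells (-0.45 ± 0.12, adjusted p = 0.0492). The calls of GATA2 and TGFBR3 in DKO cells were lost when DKO DMSO replicate 2 or replicate 3 was left out. Both genes passed in DKO cells with replicates paired within genotype.

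Because same-numbered EZ and DMSO libraries deviated together within each genotype, the drug comparisons were also fitted with replicates paired within genotype. Genes are named here because they passed in that fit, after their values were seen. It called 13 of the 62 genes in DKO cells, 9 higher and 4 lower, beside 4.63% and 3.12% of all genes. In WT cells it called 11, 7 higher and 4 lower, beside 7.67% and 4.44% of all genes. HES1, a Notch-pathway repressor of the bHLH list, then rose by 1.47 ± 0.15 in DKO and 0.97 ± 0.15 in WT cells (edgeR, adjusted p = 0.00055 and 0.00184). JUNB, an AP-1 subunit and BMP target, rose by 1.02 ± 0.25 and 1.04 ± 0.25 (adjusted p = 0.0352 and 0.0252), and RUNX2, an osteoblast transcription factor, by 1.05 ± 0.18 and 0.56 ± 0.17 (adjusted p = 0.00575 and 0.0481). TGFBR1, the type I TGF-beta receptor, fell in both genotypes, with -0.44 ± 0.09 in each (adjusted p = 0.0142 and 0.00889). FSTL3, a secreted antagonist of activins, and HES4 rose in both genotypes as well, while SKIL and NEUROG2 rose and MYC fell in DKO cells.

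Genotype differences were more common than drug differences in the same lists, as they were over all genes. In EZ 15 of the 62 genes rose and 7 fell in DKO relative to WT cells, beside 9.29% and 11.4% of all genes, and in DMSO 12 rose and 6 fell, beside 8.91% and 9.7%. All 16 genes called in both conditions had the same direction, 72.7% of those called in EZ and 88.9% of those called in DMSO. Over all genes, 1403 were called higher in both conditions, where 2027 were called higher in EZ and 1943 in DMSO. Such overlap was thus common over all genes, and it is not read as a property of these lists. The comparisons come from the same model of the same lines and are not independent. The luminal genes named above as lower in DKO cells, and the fibroblast sum, differed in the same comparisons, and their part in these results was not tested.

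Among ligands, BMP8B averaged 20.2 CPM in DKO EZ and 7.84 CPM in WT EZ, and 19.9 CPM in DKO DMSO and 7.56 CPM in WT DMSO, with log2 fold changes of 1.36 ± 0.13 and 1.40 ± 0.13 (edgeR, adjusted p = 9.01e-07 and 6.78e-07). BMP8A rose by 0.80 ± 0.18 in EZ and 0.57 ± 0.18 in DMSO (adjusted p = 0.00351 and 0.0299), but it is nearly identical to BMP8B, so reads could have been divided between them. GDF11 was the third ligand called in both conditions. BMP2, BMP4 and BMP6 did not pass in either, with log2 fold changes in EZ of 1.53 ± 0.94, -1.15 ± 0.42 and -0.58 ± 0.22 and adjusted p of 0.285, 0.0586 and 0.0732.

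Among receptors, BMPR1B, the second type I BMP receptor, averaged 6.51 CPM in DKO EZ and 1.32 CPM in WT EZ, and 9.59 CPM in DKO DMSO and 1.88 CPM in WT DMSO. Its log2 fold changes were 2.30 ± 0.49 and 2.34 ± 0.48 (edgeR, adjusted p = 0.00306 and 0.00253). The co-receptor RGMA rose by 1.47 ± 0.31 and 1.60 ± 0.32 (adjusted p = 0.00261 and 0.0019), whereas its relative RGMB fell, with -1.14 ± 0.12 and -1.31 ± 0.12 (adjusted p = 5.15e-06 and 9.84e-07). ACVR1, a further type I receptor, did not pass in EZ or DMSO (adjusted p = 0.189 and 0.274). ACVR2A, a type II receptor, was called in EZ (0.40 ± 0.14, adjusted p = 0.0485) and not in DMSO (0.19 ± 0.14, adjusted p = 0.385).

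The signal-carrying SMADs showed little. SMAD1, SMAD5, SMAD9 and SMAD4 had log2 fold changes from 0.13 to 0.21 in EZ and from -0.24 to 0.07 in DMSO, with adjusted p of 0.443 or more. SMAD2, which serves TGF-beta and activin, fell by 0.29 on the log2 scale in DMSO (edgeR, adjusted p = 0.0388), and had -0.07 ± 0.09 in EZ (adjusted p = 0.686).

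Of the secreted and membrane antagonists, CHRDL1 and CHRD, which bind BMPs outside the cell, were higher in DKO cells and BAMBI, a receptor decoy, was lower. CHRDL1 averaged 6.65 CPM in DKO EZ and 1.11 CPM in WT EZ, and 6.56 CPM in DKO DMSO and 0.793 CPM in WT DMSO, with log2 fold changes of 2.56 ± 0.37 and 3.00 ± 0.38 (edgeR, adjusted p = 0.000107 and 2.74e-05). CHRD rose by 1.23 ± 0.29 and 1.30 ± 0.30 (adjusted p = 0.00586 and 0.00548). BAMBI averaged 27.0 CPM in DKO EZ and 93.0 CPM in WT EZ, and 16.0 CPM in DKO DMSO and 56.6 CPM in WT DMSO, with log2 fold changes of -1.79 ± 0.35 and -1.82 ± 0.35 (adjusted p = 0.00199 and 0.00196).

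Listed BMP targets went both ways by genotype. HEY1, a bHLH repressor, rose by 1.29 ± 0.32 in EZ and 1.32 ± 0.33 in DMSO (edgeR, adjusted p = 0.00755 and 0.00923), while RUNX2 fell, with -1.31 ± 0.25 and -1.82 ± 0.25 (adjusted p = 0.000981 and 7.21e-05) and the homeobox gene MSX2 did so too, with -0.83 ± 0.21 and -0.92 ± 0.22 (adjusted p = 0.00987 and 0.00592). UNC5B, a netrin receptor, rose in EZ (1.42 ± 0.34, adjusted p = 0.00689) and had 0.99 ± 0.34 in DMSO (adjusted p = 0.0537). ATOH8, a bHLH gene, rose in EZ (2.86 ± 0.85, adjusted p = 0.0231), where DKO EZ replicate 1 had 5.51 CPM and the other DKO EZ libraries 0.71 to 1.24 CPM.

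The partners of ID proteins include the E proteins TCF3, TCF4 and TCF12, none of which passed in EZ (edgeR, adjusted p = 0.631, 0.293 and 0.642) or in DMSO (adjusted p = 0.436, 0.0742 and 0.158). BHLHE41, a circadian repressor, rose by 2.11 ± 0.50 and 1.69 ± 0.50 (adjusted p = 0.0055 and 0.0252). MYC fell by 1.02 in EZ (adjusted p = 0.000634) and had -0.33 ± 0.18 in DMSO (adjusted p = 0.232).

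In the TGF-beta arm the type II receptor TGFBR2 averaged 0.394 CPM in DKO EZ and 7.56 CPM in WT EZ, and 0.186 CPM in DKO DMSO and 7.27 CPM in WT DMSO. Its log2 fold changes were -4.21 and -5.11 (edgeR, adjusted p = 1.67e-05 and 3.66e-06). The DKO EZ libraries held 47 reads of it in total and the DKO DMSO libraries 26, so the size of these changes rests on few reads. ACVR1C, a type I receptor for activin-like ligands, rose by 1.97 ± 0.28 and 1.94 ± 0.28 (adjusted p = 9.21e-05 and 9.58e-05). TGFB3 rose in EZ (1.49 ± 0.37, adjusted p = 0.00724) and had 0.72 ± 0.34 in DMSO (adjusted p = 0.164).

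**Figure D3:**
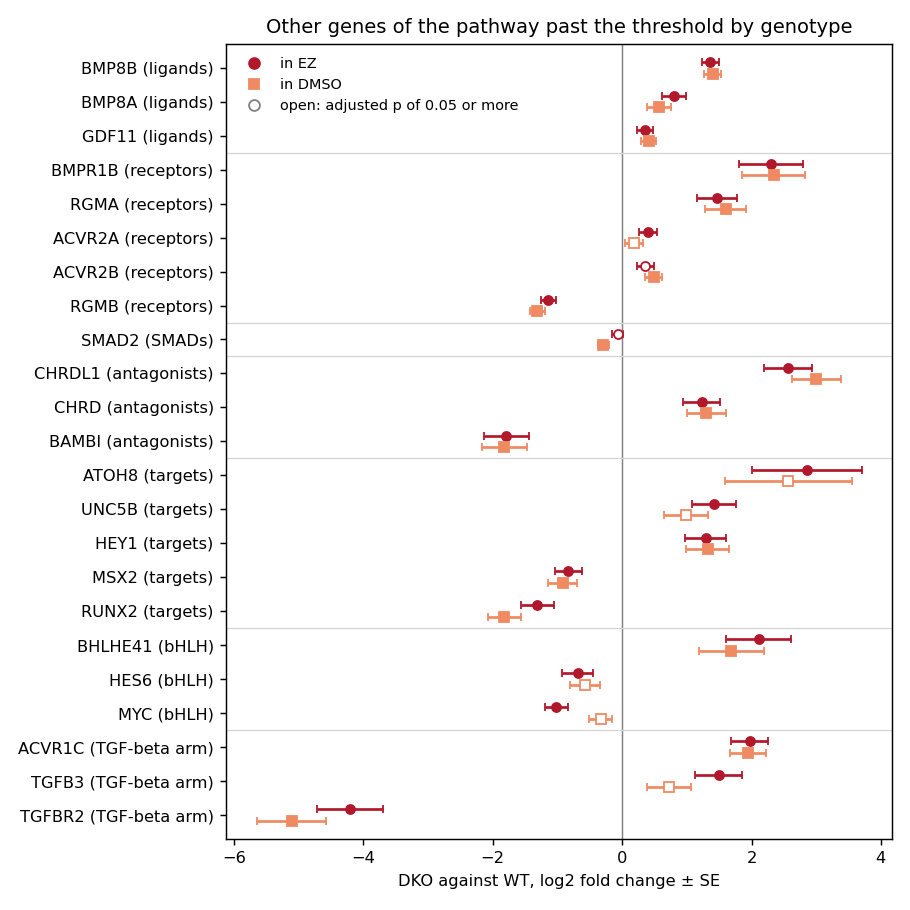
Log2 fold changes of DKO against WT in EZ and in DMSO, with standard errors as bars, for 23 other pathway genes past the threshold in at least 1 condition. Filled symbols passed in that condition and open ones did not. TGFBR2 has the lowest values, -4.21 and -5.11, and CHRDL1 is among the highest, at 2.56 and 3.00.

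Set beside each other per length of exon, the pathway was unevenly represented. Among the receptors, BMPR2 averaged 46.7 CPM per kb in DKO EZ and 36.0 in DKO DMSO, and 46.4 in WT EZ and 34.8 in WT DMSO. BMPR1A averaged 4.87 and 3.98 CPM per kb in the DKO groups, and 3.49 and 3.16 in the WT groups. ID1 moved across that range between the DKO groups, with a mean of 38.2 CPM per kb in DKO EZ, close to BMPR2, and 3.03 in DKO DMSO, close to BMPR1A. BMP7 averaged 1.87 and 0.794 CPM per kb in DKO EZ and DKO DMSO, below BMP6 at 5.46 and 4.22, and 0.0467 and 0.022 in WT EZ and WT DMSO, below BMP4 at 0.25 and 0.126. The spread between replicates was wide for ID1 (38.2 ± 26.6 CPM per kb in DKO EZ, SD, n = 4), ID2 (29.3 ± 13.8) and ID3 (25.0 ± 18.3). These genes were measured in the same libraries, so that spread is not the spread of a difference between them, which was not tested.

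**Figure D4:**
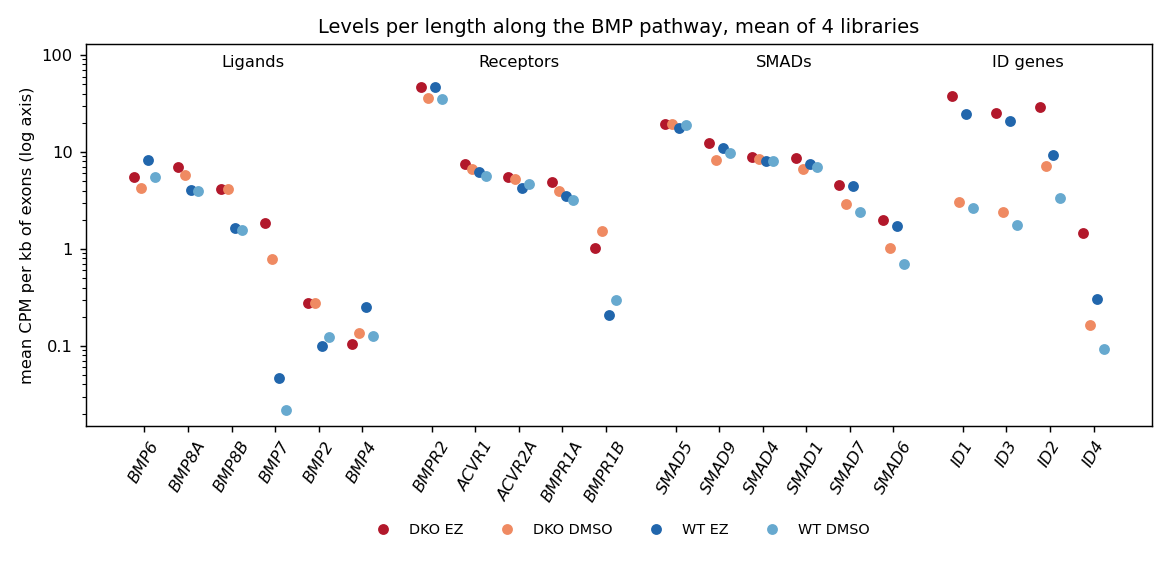
Mean CPM per kb of exon of 4 libraries per group on a log axis, for ligands, receptors, SMADs and ID genes. The means of each ID gene are higher in the EZ groups than in the DMSO groups, although single libraries of ID2 and ID4 overlap. BMP7 and BMPR1B separate DKO from WT cells, while SMAD5 stays between 17.6 and 19.5.

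Within the EZ groups, the libraries with the most ID1, ID2 and ID3 had the fewest counts of mitosis genes. DKO EZ replicate 1, the highest for all 4 ID genes, had 387 CPM of 10 summed mitosis genes, against 1020 to 1420 CPM in the other DKO EZ libraries. WT EZ replicate 1, also highest for all 4, had 216 CPM, against 824 to 909 CPM in the other WT EZ libraries. A low mitosis sum was seen in WT DMSO replicate 4 as well, at 276 CPM, and there ID1 was the lowest of its group at 1.62 CPM while ID2 and ID3 were the highest at 9.88 and 4.19 CPM. The part of proliferation in the differences was not tested. With both EZ libraries numbered 1 left out, the drug log2 fold changes of ID1 were 3.08 in DKO and 2.53 in WT cells and those of ID3 were 2.71 and 2.85.

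**Figure D5:**
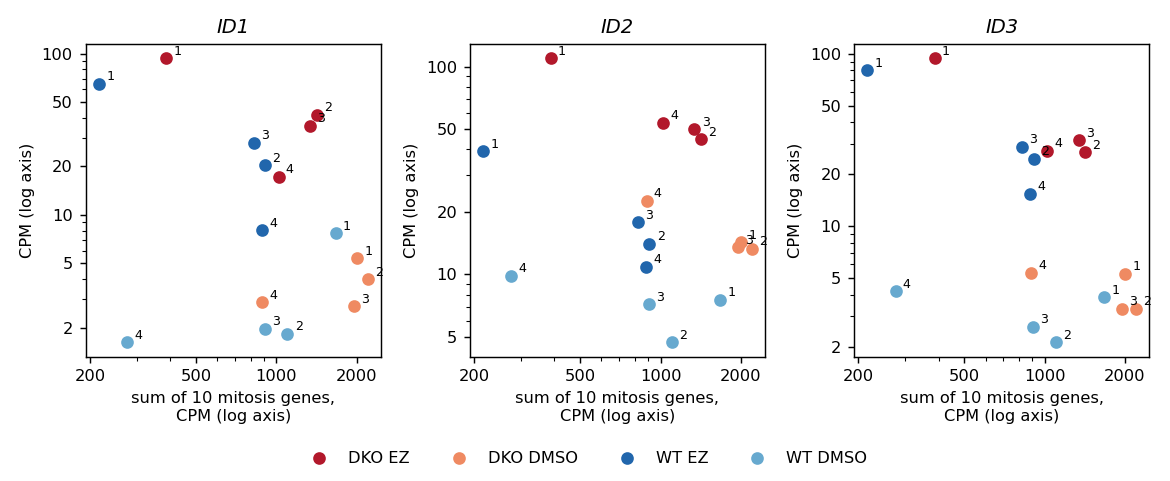
CPM of ID1, ID2 and ID3 against the summed CPM of 10 mitosis genes, both on log axes, for the 16 libraries, with replicate numbers beside the points. EZ replicate 1 of each genotype lies at the upper left of its group, and WT DMSO replicate 4 has a low mitosis sum of 276 CPM with 1.62 CPM of ID1.

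The 6 libraries with RN7SL1 above 0.2% were replicate 1 of every group and replicate 2 of both DKO groups. RN7SL1 was higher with EZ than with DMSO in 7 of 8 same-numbered pairs. Among those 6 libraries it took 0.4023% to 0.6207% with EZ and 0.2201% to 0.2623% with DMSO, and among the other 10 it took 0.0636% to 0.1166% with EZ and 0.04811% to 0.1077% with DMSO. Its part in the drug differences was not tested beyond the values that follow. Within the 6 libraries the drug difference in mean log2 CPM was 3.73 in DKO (2 against 2) and 3.07 in WT cells (1 against 1) for ID1, and 3.56 and 4.34 for ID3. Within the other 10 it was 3.12 in DKO (2 against 2) and 3.15 in WT cells (3 against 3) for ID1, and 2.78 and 2.92 for ID3. For BMP7 the difference of DKO minus WT was 4.54 and 4.27 in the first set with EZ and DMSO, and 4.78 and 4.63 in the second.

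ID1 and ID3 varied together across libraries, with a Pearson r of 0.95 over the 16 libraries in log2 CPM. The r of ID1 with ID2 was 0.81, with ID4 0.85, with SMAD7 0.88 and with BMP7 0.38. These libraries fall into 4 groups by drug and genotype and share depth and scaling, so the values describe a common pattern only. Among 10682 protein-coding genes with a mean of at least 5 CPM, those most like ID1 were CLMN (0.95), KIAA1522 (0.92), SDC1 (0.91), DUSP2 (0.91) and KCNG3 (0.91). Those most like ID3 were IGFBP3 (0.96), GALNT10 (0.96), CLMN (0.95), DUSP2 (0.95) and SQOR (0.94). IGFBP3, a binding protein of insulin-like growth factors, averaged 109 CPM in DKO EZ and 14.6 CPM in DKO DMSO, and 147 CPM in WT EZ and 13.3 CPM in WT DMSO. DUSP2, a phosphatase of MAP kinases, averaged 19.0 and 8.03 CPM in the DKO groups, and 17.4 and 7.88 CPM in the WT groups.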

How the data were processed

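RNA-seq counts per gene were taken for 16 libraries in 4 groups of 4. The deposited values are raw read counts per Ensembl gene ID, made by the authors with no normalization. STAR 2.7.3a and GRCh38 are named, per the submitters' processing notes, while the sources used here name neither a counting tool nor a strand setting. Of 60676 gene IDs, 60357 matched a symbol and 58503 are in GENCODE v29, from which exon lengths and positions were taken. Library totals ran from 11823438 to 47678648 counts (median 23919882), and 30166 to 35275 genes had a count.

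Genes were kept by filterByExpr of edgeR 4.0.16 (minimum count 10, minimum total 15), which left 21810 genes, all 9 members among them. A gene near absent in 1 genotype can pass that filter through the other, as BMP7 did through DKO cells. Libraries were scaled by TMM, and a quasi-likelihood F-test (R 4.3.3, robust fit) was run in 1 model of the 4 groups over all 16 libraries, with Benjamini-Hochberg adjustment over all genes tested and a threshold of 0.05. A prior count of 2 was used only for log2 CPM, from which correlations and the differences within RN7SL1 sets were taken. The biological coefficient of variation was 28%. Standard errors and 95% intervals come from the same fit unless a paired fit is named, so those of the 9 genes with drug do not use the pairing. Printed CPM are counts scaled to the library size after TMM. The script was tested on simulated data. Alternatives were RLE, upper-quartile and unscaled library totals, no filter, DESeq2 1.42.0, limma-voom (limma 3.58.1), only the groups compared, replicate blocks, a covariate for RN7SL1 share and each library left out.

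The members and the gene lists were chosen with earlier results of these data known. The named genes are the members, a panel of core signalling genes, and for each list and comparison the 2 highest and 2 lowest past the threshold. Nothing in the labels says that replicates came from separate cultures, so the spread behind each p-value is that between these libraries only and may be technical. Chi-square per degree of freedom between replicates was 4.87 to 88.7, so none was a copy of another. Within genotype, deviations of same-numbered EZ and DMSO libraries correlated at 0.40 to 0.66 in DKO and 0.33 to 0.62 in WT cells, each best with its own number, and the numbers were taken to pair those libraries. Some genes of the lists are counted but not reported here by name.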

Additional observations from a re-analysis of the deposited data

Results flagged for a closer look

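In each group of 4 libraries, a value was picked out when its gap to the nearest other library, divided by the range of the group, exceeded Dixon's critical value at 95% for 4 samples. This held in 18 of 124 gene and group sets over 31 genes, 11 of them in replicate 1, and each was the high value of its group. Chance picks out about 1 in 20 groups where values are normally distributed. These values are CPM without logs, so that rate may not apply to them. The genes are measured in the same libraries, so these values are not independent.

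DKO EZ replicate 1 was the high library for 4 of the 9 genes. It had 110.0 CPM of ID2 against 44.8 to 53.6 CPM in the other DKO EZ libraries, 94.1 CPM of ID3 against 26.8 to 31.5, 8.92 CPM of ID4 against 1.45 to 1.68, and 18.4 CPM of BMP7 against 7.11 to 7.73. The same library had 12.6 CPM of BMPR1B against 4.25 to 4.78, 257.0 CPM of SMAD2 against 221.0 to 226.0, and 5.51 CPM of ATOH8 against 0.71 to 1.24.

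WT DMSO replicate 1 had 7.68 CPM of ID1 against 1.62 to 1.97 CPM in the other WT DMSO libraries, and 75.4 CPM of HES6 against 42.3 to 46.2. DKO DMSO replicate 1 had 22 CPM of BMPR1B against 4.5 to 5.99. WT EZ replicate 1 had 267.0 CPM of GATA2 against 176.0 to 191.0. WT DMSO replicate 3 had 2.21 CPM of BMPR1B against 1.74 to 1.81.

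DKO DMSO replicate 4 had 22.7 CPM of ID2 against 13.3 to 14.3 CPM in the other DKO DMSO libraries, 42.5 CPM of HES6 against 32.3 to 33.5 and 4.5 CPM of MSX2 against 2.85 to 3.1. WT DMSO replicate 4 had 105.0 CPM of BAMBI against 38.6 to 42.9, 1.66 CPM of BHLHE41 against 0.157 to 0.357, and 12.5 CPM of TGFBR2 against 5.01 to 5.93.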

How the results depend on the processing

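The higher level of BMP7 in DKO cells passed in all 26 alternatives in both conditions, and that of ID2 in EZ in all 26 (adjusted p 0.000129 to 0.0367). The ID4 call in EZ held in 22 of 26. It was lost without DKO EZ replicate 1 or WT EZ replicate 4, with both EZ replicates 1 left out (1.63, adjusted p = 0.0628) and with only the groups compared (2.30, adjusted p = 0.0676). Depth limits ID4 in all groups, TGFBR2 in DKO cells and BMP7 in WT cells, where libraries held 1 to 8 reads of BMP7.

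For DKO against WT in DMSO, 1 of the 9 genes passed. With upper-quartile scaling, DESeq2, only the groups compared, or both EZ replicates 1 left out, 2 passed, and with library totals or the replicate block 3 passed. Leaving out 1 library each gave 1 to 2 genes in DMSO and 2 to 4 in EZ. Between genotypes, same-numbered libraries correlated at 0.23, -0.05, 0.23 and 0.52 for numbers 1 to 4 in EZ and at 0.29, -0.07, 0.32 and 0.67 in DMSO. A pairing was taken only where every number correlated positively, so the block was not read as one here. With the replicate block ID2 (adjusted p = 0.0217) and SMAD6 (0.59, adjusted p = 0.0232) passed in DMSO and BMPR1A (0.52, adjusted p = 0.0342) in EZ.

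The drug counts moved most, and the cause was not tested. Over all genes in DKO cells 322 passed, against 167 with no filter, 701 with DESeq2, 1104 with the replicate block, 1691 with the block within genotype, 519 with the RN7SL1 covariate and 73 to 451 with 1 library left out. In WT cells 724 passed, against 436 with no filter, 1135 with DESeq2, 294 with only the groups compared, 1724 with the replicate block, 2641 with the block within genotype and 304 to 1051 with 1 library left out. Of the 62 other pathway genes 3 passed in DKO cells, against 6 with upper-quartile scaling or DESeq2, 5 with library totals, 14 with the replicate block, 13 with the block within genotype, 7 with the RN7SL1 covariate and 1 to 5 with 1 library left out. In WT cells 3 passed, against 6 with upper-quartile scaling or the RN7SL1 covariate, 5 with library totals, DESeq2 or limma-voom, 8 with the replicate block, 11 with the block within genotype and 2 to 9 with 1 library left out. For the interaction over all genes 0 passed, against 4 with DESeq2, 1 with the replicate block and 39 with the block within genotype.

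With unscaled library totals the median log2 fold change of all genes for DKO against WT was 0.23 in EZ and 0.14 in DMSO, against -0.01 and -0.06 with TMM. The split of calls was then 3966 higher and 1183 lower in EZ, against 2027 and 2481 with TMM, and 3479 and 1082 in DMSO, against 1943 and 2115.

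Changes of sign touched uncalled differences only. For DKO against WT in EZ, BMPR2 was -0.02 with the RN7SL1 covariate, -0.03 with both EZ replicates 1 left out and -0.04 to 0.11 with 1 library left out, ID3 was -0.36 to 0.99 and SMAD7 -0.05 to 0.21. In DMSO BMPR2 was -0.04 to 0.23. For the interaction the ranges were -0.43 to 1.12 for ID1, -0.84 to 0.51 for ID3, -0.33 to 0.48 for BMP7, -0.10 to 0.46 for BMPR1A and -0.14 to 0.12 for BMPR2.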
